A study of Mus musculus with 14 samples.

Results

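The response of CT26 cells to a RIG-I agonist was examined across the whole transcriptome, with attention to the genes outside the classic interferon response. CT26 is a colorectal carcinoma line from BALB/c mice. The comparison comprised 6 of the 14 libraries of the series: 3 from cells given 0.5 ug/ml of a RIG-I agonist and 3 from cells given 0.5 ug/ml of a control agonist, all collected at 24 h, and chosen by the column names of the CT26 table. Both groups therefore received an agonist, the identity of neither is given in the labels, and no untreated cells were analysed here. The RNA was poly(A)-selected and made into stranded libraries. The labels do not say whether the 3 libraries of a group were separate cultures. The p-values therefore reflect library-to-library variation alone, and that variation could be technical.

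RIG-I is a cytosolic sensor of viral RNA. Once it binds RNA it signals through the mitochondrial adaptor MAVS to the transcription factors IRF3, IRF7 and NF-kB, which turn on type I interferon and inflammatory cytokines, and secreted interferon then acts back on the cell through JAK and STAT proteins to induce many antiviral genes. Cells in this state are also known to change their metabolism, their translation and their surface proteins. To look past the antiviral core, a set of well-known interferon-stimulated, antigen-presentation and chemokine genes was put aside, of which 220 were expressed highly enough to be tested. That set does not hold every gene interferon can induce.

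Levels are given in CPM, each gene's count divided by the scaled size of its library and multiplied by 1000000, in the order of replicates 1, 2 and 3, and changes as the log2 fold change of RIG-I agonist over control agonist with its standard error. A gene was called higher or lower at an adjusted p under 0.05 by edgeR's quasi-likelihood test with Benjamini-Hochberg adjustment over all 13893 genes tested. Every adjusted p below comes from that test, and every value per group rests on 3 libraries.

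The libraries held 32826742 to 40564102 counts, and a gene without counts could still lie as high as 0.074 to 0.091 CPM in a library (3 counts; counting error only). Replicates differed by more than sampling noise, with a chi-square per degree of freedom of 7.16 to 28.89 between pairs, so none was counted as a repeat of another. The first principal component held 66.2% of the variance and separated the agonists. The second held 14.9% and set replicate 3 of the RIG-I group apart, at -37.22, with control replicate 3 next, at -14.82. Most epithelial markers were scarce for a carcinoma: Epcam and Cdx1 were at 0 in all 6 libraries and 9 of 12 lay below 1 CPM. Krt18 stood at 15.3 to 24.9 CPM over the 6 libraries, Krt20 at 18 to 20.2 CPM and Lgals4 at 0.918 to 1.14 CPM. The 12 summed to 40.1 to 44.7 CPM in controls and 36.7 to 39.4 CPM after RIG-I agonist. The 10 mesenchymal markers, led by Vim, summed to 6488 to 6754 CPM in controls and 4866 to 5241 CPM after RIG-I agonist. Of 16 leukocyte markers, Adgre1 and Nkg7 were at 0, 15 were below 1 CPM, and none of the 4 that could be tested was called, with sums of 4.16 to 5.39 and 5.36 to 6.28 CPM. The 8 endothelial markers summed to 1.78 to 2.65 CPM in controls and 3.66 to 4.29 CPM after RIG-I agonist, with 1 of 3 tested higher. Among them Kdr went from 0, 0 and 0.026 CPM to 1.12, 0.927 and 0.901 CPM. The 10 fibroblast markers, led by Col1a2, summed to 1374 to 1731 CPM in controls and 1220 to 1257 CPM after RIG-I agonist. Of 9 fibroblast markers tested, 2 were higher and 4 lower. The part of other cells in the results was not tested. In bulk RNA, fewer cells of a kind and less RNA per cell cannot be told apart.

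The response was broad and lopsided in size. Of the 13893 genes, 2751 were higher (19.8%) and 2583 were lower (18.6%). The scaling centres the median gene at 0, and the higher genes made up 51.6% of calls with it, 57.8% with library size as the only scaling and 43.4% in a fit that took its spread from all 14 libraries of the series. The interferon set supplied 206 of the higher genes and 4 of the lower ones, and its higher members rose by a median of 1.94 on the log2 scale. Among the other 13673 genes, 2545 were higher and 2579 were lower, so 5124 called genes lay outside the interferon set. Their changes were moderate: the median log2 fold change was 0.46 among the higher genes and -0.32 among the lower ones. The control and RIG-I libraries did not overlap in 2516 of the 2545 and in 2528 of the 2579, against 51.4% of all genes tested.

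Large changes were nearly all rises. A test against a 1.5-fold change called 763 genes higher (5.49%) and 64 lower (0.461%), and 570 and 63 of these were outside the interferon set. By estimated size, 243 rises outside that set reached 4-fold or more and 446 lay between 2- and 4-fold, against 7 and 51 falls. Between 1.5- and 2-fold there were 351 rises and 282 falls. Under 1.5-fold the balance turned, with 638 rises and 924 falls at 1.25- to 1.5-fold and 867 and 1315 below 1.25-fold. The falls below 1.25-fold made up 51% of all genes called lower outside the interferon set. Many large rises were in scarce genes. Among protein-coding genes outside that set, rises of at least 2-fold numbered 287 below a mean of 1 CPM and 135 at 1 to 4 CPM. At 64 to 256 CPM they numbered 19, and at 256 CPM or more 2. Falls of that size numbered 23, 18, 1 and 0 in the same classes. In the fit with the spread of all 14 libraries the higher calls dropped to 1520 and the lower calls to 1983, and the genes lower by more than 1.5-fold to 33. That fit called 10.4% of its genes higher and 13.5% lower, and 87 of 176 list counts changed by more than 1.5 times in it. Without replicate 3 of both groups there were 2460 higher, 2281 lower and 114 lower by more than 1.5-fold.

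**Figure D1:**
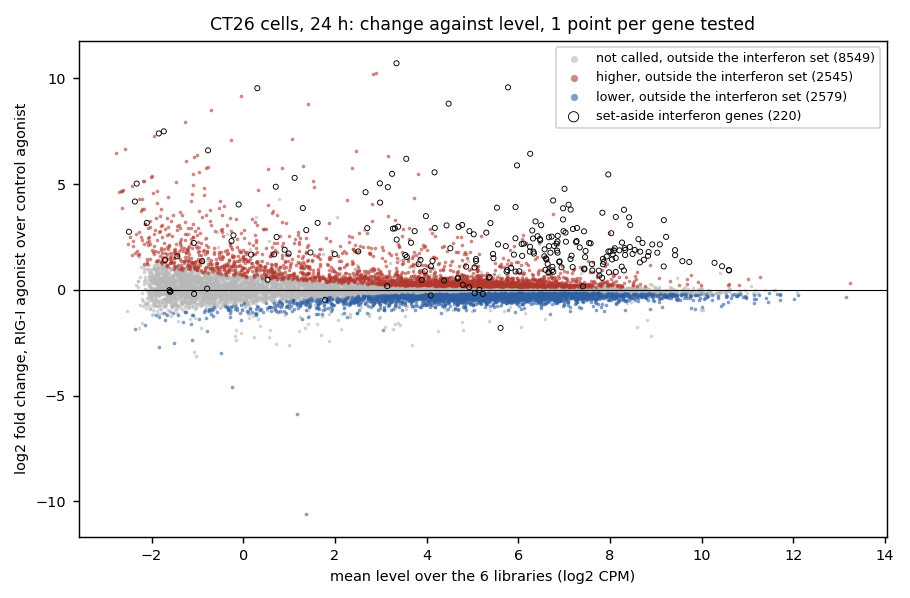
Log2 fold change of RIG-I agonist over control agonist (vertical axis) against the mean level in log2 CPM (horizontal axis), 1 point per gene tested in CT26, with called genes and the interferon set in colours of their own. The interferon set lies mostly above 0, and outside it 2545 called genes lie above and 2579 below, the falls mostly within 2-fold.

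The strongest rises outside the interferon set were of mixed kinds. The rule for large changes took the 15 top rises among well-expressed genes. Some of these belong to families of the interferon set, such as Cxcl11, a chemokine gene beside Cxcl10, and Gbp11, a guanylate-binding protein. The name patterns that defined that set took only genes annotated as protein-coding, so both stayed outside it. Gm43302 and Gm43802 overlap Gbp10 and Gbp7, and their reads cannot be told apart from those of the overlapping gene where strand was not used in counting, which the sources used here do not state. The rest were scattered over the genome.

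Mpeg1 encodes perforin-2, a pore-forming protein that attacks engulfed bacteria, and lies at chr19:12460779-12465283 (GRCm38, plus strand). It stood at 1.08, 1.29 and 1.3 CPM in the controls and 25.3, 25.4 and 24.7 CPM after RIG-I agonist, a log2 fold change of 4.35 ± 0.09 (adjusted p = 2.75e-13). The groups were far apart and the treated libraries nearly equal. Of the macrophage markers, Adgre1 was at 0 in all 6 libraries and Cd68 stood at 2.78, 2.93 and 3.23 CPM in the controls against 4, 3.68 and 3.72 CPM. The part of such cells in the rise of Mpeg1 was not tested. Apod encodes apolipoprotein D, a secreted lipid carrier (chr16:31296192-31314808). Apod measured 13.1, 18 and 17.9 CPM in the controls and 192, 211 and 197 CPM after RIG-I agonist, a log2 fold change of 3.61 ± 0.12 (adjusted p = 3.53e-08). Its treated libraries were about as close to each other as its controls, and all lay far above them.

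Other strong risers encode intracellular proteins. Spats2l, whose protein is found in stress granules, rose from 3.72, 4.27 and 4.01 CPM to 29, 29.3 and 30.4 CPM (log2 fold change 2.88 ± 0.08). Hap1, a vesicle transport partner of huntingtin, rose from 4.88, 4.42 and 4.5 CPM to 29.5, 30 and 30.3 CPM (2.70 ± 0.07). Plekha4, which encodes a phosphoinositide-binding adaptor, rose from 5.99, 5.21 and 4.53 CPM to 30.9, 31.4 and 30.8 CPM (2.57 ± 0.09). In each of these genes the lowest treated library was several times the highest control. Plekha4 (chr7:45526330-45554229, plus strand) starts back to back with Ppp1r15a (chr7:45522916-45526268, minus strand), the stress-induced phosphatase subunit that restores translation. Ppp1r15a itself measured 108, 98.9 and 88.4 CPM in the controls and 194, 201 and 196 CPM after RIG-I agonist (adjusted p = 3.82e-08), so both genes of this divergent pair were higher.

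Risers lay near interferon genes more often than other genes did. Of the 666 genes outside the interferon set that rose at least 2-fold and had a position, 35 (5.26%) lay within 10000 bases of an interferon-set gene, against 30 of 1847 smaller rises (1.62%), 69 of 8506 genes that were not called (0.811%) and 17 of 2572 falls (0.661%). Of the 35, 9 overlapped an interferon-set gene, as did 7, 15 and 8 of the other classes, and reads of overlapping genes may not be told apart. Within 100000 bases the shares were 11.9%, 5.14%, 3.63% and 3.03%. Even at that distance most of the larger risers had no interferon-set gene nearby.

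The letters of the promoters give a second view of the same classes. Windows from 250 bases before to 50 bases after the start were taken from RefSeq (GRCm38.p6) for 9875 of 12134 protein-coding genes tested (81.4%). They were searched on both strands for the interferon-stimulated response element, spelled GAAANNGAAA, and for an NF-kB site, spelled GGGANTTTCC. The first stood in the promoters of 72 of 164 higher interferon-set genes (43.9%), 73 of 1405 genes outside it that rose below 2-fold (5.2%), 178 of 5886 that were not called (3.02%), 55 of 1992 that fell (2.76%) and 404 of all 9875 (4.09%). The second stood in 6, 10, 19, 9 and 50 genes of the same classes, or 3.66%, 0.712%, 0.323%, 0.452% and 0.506%. In the class outside it that rose at least 2-fold, fewer genes had a window (76.1%, against 81% to 82.8% in the other classes). Of its 415 genes with a window, 26 held the first (6.27%) and 6 the second (1.45%). Its genes without a window could differ, so these shares are less certain. Other sites were searched as well. An AP-1 site (TGANTCA) stood in 10.4% of that class, 5.84% of smaller rises, 5.73% of genes not called and 7.98% of falls. Hypoxia response, cyclic AMP response and E2F sites stood in 3.86%, 2.89% and 0.964% of that class. Among genes not called these stood in 4.57%, 3.79% and 0.799%. Below are stretches of 59 to 70 bases from 9 risers outside the interferon set, shown because they hold the letters of a factor that acts downstream of RIG-I or interferon. They are given 5′ to 3′ on the strand of the gene, with the match in capitals, and a match on the opposite strand appears as TTTCNNTTTC or GGAAANTCCC. The first 6 hold GAAANNGAAA and lie, in order, at chr9:14740807-14740876 (minus strand), chr6:129180396-129180465 (plus), chr19:3905390-3905459 (minus), chr2:51935348-51935413 (minus), chr7:141435415-141435484 (minus) and chr13:33004465-33004534 (plus). The last 3 hold GGGANTTTCC, at chr5:30013040-30013109 (plus), chr12:55492648-55492706 (minus) and chr3:107760584-107760653 (minus).
Piwil4: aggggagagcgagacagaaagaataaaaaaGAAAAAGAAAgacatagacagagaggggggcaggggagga
Clec2d: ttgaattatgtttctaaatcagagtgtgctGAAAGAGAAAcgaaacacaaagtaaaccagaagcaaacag
Tcirg1: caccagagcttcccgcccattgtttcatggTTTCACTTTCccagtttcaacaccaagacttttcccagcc
Rbm43: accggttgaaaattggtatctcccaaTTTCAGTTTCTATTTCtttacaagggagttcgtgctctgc
Slc25a22: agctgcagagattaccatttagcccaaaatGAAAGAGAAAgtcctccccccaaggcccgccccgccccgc
Serpinb9: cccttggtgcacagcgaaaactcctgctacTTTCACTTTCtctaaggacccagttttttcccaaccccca
Il6: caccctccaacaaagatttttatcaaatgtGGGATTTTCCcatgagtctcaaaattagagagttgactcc
Nfkbia: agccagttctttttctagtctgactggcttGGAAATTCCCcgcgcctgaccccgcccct
Csf1: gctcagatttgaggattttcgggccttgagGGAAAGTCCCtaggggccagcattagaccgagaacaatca
The match in Serpinb9 begins 46 bases before the start, those in Il6 and Nfkbia 44 and 29 bases before it, and that in Piwil4 174 bases before it. In Rbm43, 2 overlapping matches run together. Each of these genes except Csf1 rose at least 2-fold, and most genes of that class with a window held neither spelling. A match is a description of the letters and is not a measured binding site.

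Several of these genes moved strongly. Piwil4, of the Piwi family of small-RNA-binding proteins, rose from 3.52, 2.93 and 3.12 CPM to 13.4, 12.9 and 12.8 CPM (2.03 ± 0.10, adjusted p = 1.27e-09). Clec2d, a lectin-like ligand of NK cell receptors, rose from 10.7, 10.9 and 12.9 CPM to 40.5, 39.1 and 39.5 CPM (1.79 ± 0.08). Serpinb9, an inhibitor of granzyme B, rose from 16, 15.9 and 17.7 CPM to 36.7, 37.1 and 34.2 CPM (1.12 ± 0.07). The mitochondrial glutamate carrier gene Slc25a22 rose from 23.7, 21.4 and 20.3 CPM to 47.9, 46.2 and 50.5 CPM (1.14 ± 0.07). The treated libraries of all 4 genes lay well above their controls.

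Many genes of NF-kB signalling were higher, those of its inhibitors among them. Of 49 tested genes of NF-kB and TNF receptor signalling, 27 were higher and 2 lower, with a median log2 fold change of 0.28 against 0.00 over all genes. Nfkbia, the inhibitor IkB-alpha that NF-kB itself induces, measured 21.2, 24.3 and 22.6 CPM in the controls and 94.9, 100 and 97.8 CPM after RIG-I agonist (2.10 ± 0.07, adjusted p = 1.15e-11). Traf1, an adaptor of TNF receptors, rose from 4.22, 3.35 and 3.77 CPM to 16.9 CPM in every treated library (2.16 ± 0.09). Inhibitors were prominent: Nfkbie, which encodes IkB-epsilon, rose by 1.46 ± 0.08 and Tnfaip3, the ubiquitin-editing enzyme A20, by 1.08 ± 0.06. Among subunit genes, Nfkb1 and Rela moved less than these inhibitors, and values of the other subunits are not given here. Nfkb1 stood at 114, 98.4 and 90.9 CPM against 97.5, 103 and 103 CPM, with overlapping groups (0.00 ± 0.07, adjusted p = 0.986). Rela was higher by 0.30 ± 0.07, a call lost in the fit with the spread of all 14 libraries. The cytokine gene Il6 went from 0.278, 0.198 and 0.182 CPM to 17, 18 and 17.9 CPM (6.32 ± 0.14, adjusted p = 2.98e-13), and Csf1, the macrophage growth factor, from 477, 430 and 391 CPM to 633, 639 and 650 CPM (0.57 ± 0.07), the last call being lost in the fit with the spread of all 14 libraries.

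Some receptors that take up such signals rose as well. Of 41 interleukin and TNF-superfamily receptor genes, 18 were higher and 3 lower (median 0.18), and 8 were higher in the fit with the spread of all 14 libraries. Il1rl1, the receptor for interleukin-33, measured 114, 120 and 128 CPM in the controls and 350, 340 and 348 CPM after RIG-I agonist (1.52 ± 0.06, adjusted p = 1.03e-10). Il13ra1, a chain of the receptor for interleukin-13, rose from 2.08, 2.31 and 2.29 CPM to 9.28, 9.35 and 9.97 CPM (2.10 ± 0.11). Among channels, P2rx7, the ATP-gated pore that can trigger the inflammasome, rose from 8.71, 8.59 and 7.37 CPM to 19.9, 18.2 and 20.2 CPM (1.24 ± 0.08). Trpm2, a calcium channel opened by ADP-ribose, rose by 1.87 ± 0.10 and Kcnab1, a potassium channel subunit, by 2.29 ± 0.16, whereas the related ATP-gated channel gene P2rx3 fell by 0.72 ± 0.10. Ion channels as a class had 10 of 65 tested genes higher and 18 lower, or 10 lower without RIG-I replicate 3. In the fit with the spread of all 14 libraries 10.8% were higher and 14.5% lower, close to the 10.4% and 13.5% over all genes of that fit.

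Complement genes were among the sharpest rises. Of 24 tested genes of complement and coagulation, 10 were higher and 1 lower, with a median of 0.54, and 6 were higher in the fit with the spread of all 14 libraries. C4b, which encodes component C4, rose from 1.91, 1.76 and 1.77 CPM to 18.8, 18.5 and 17 CPM (3.32 ± 0.09, adjusted p = 3.5e-12). Cfb, factor B of the alternative pathway, rose from 3.08, 2.9 and 2.42 CPM to 22.7, 22.7 and 19.7 CPM (2.95 ± 0.10). C3, the component on which all routes of activation meet, rose from 2.11, 1.54 and 1.54 CPM to 8.48, 8.47 and 7.75 CPM (2.25 ± 0.14). The groups were far apart in each. C1ra, a protease of the classical pathway that was already abundant in controls at 74.7, 70 and 70.6 CPM, rose to 140, 135 and 128 CPM (0.90 ± 0.06). Extracellular proteases and their inhibitors had 16 of 57 higher and 8 lower (median 0.25, or -0.00 with a minimum count of 50). Without control replicate 1 the lower count was 13. In the fit with the spread of all 14 libraries 9 of 64 were higher and 8 lower. These shares, 14.1% and 12.5%, lay near the 10.4% and 13.5% over all genes of that fit. Serpinb6b, an intracellular serpin, rose by 2.47 ± 0.20 and the plasminogen activator gene Plat by 1.02 ± 0.11, while the metalloprotease gene Adam12 fell by 0.91 ± 0.08.

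Lysosomal genes split. Of 47 tested genes of lysosomal enzymes and membrane proteins, 10 were higher and 19 lower (median -0.11). Grn, whose product progranulin is cleaved in lysosomes, measured 157, 155 and 134 CPM in the controls and 345, 344 and 344 CPM after RIG-I agonist (1.21 ± 0.07, adjusted p = 5.05e-09). Npc2, the luminal cholesterol carrier, rose from 251, 285 and 298 CPM to 490, 504 and 498 CPM (0.84 ± 0.07), and the membrane protein gene Cln3 rose by 0.87 ± 0.07. Tcirg1, which encodes the a3 subunit of the proton pump, rose from 103, 108 and 93.3 CPM to 268, 264 and 262 CPM (1.38 ± 0.06). The related a1 subunit gene Atp6v0a1 went the other way, from 29.2, 24.8 and 24.8 CPM to 16.9, 16 and 15.7 CPM (-0.70 ± 0.08, adjusted p = 1.41e-05). Ids, which encodes iduronate sulfatase, fell from 40.2, 34.7 and 33.6 CPM to 19.9, 21.3 and 21.5 CPM (-0.79 ± 0.08). The treated libraries of both falling genes lay below every control.

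**Figure D2:**
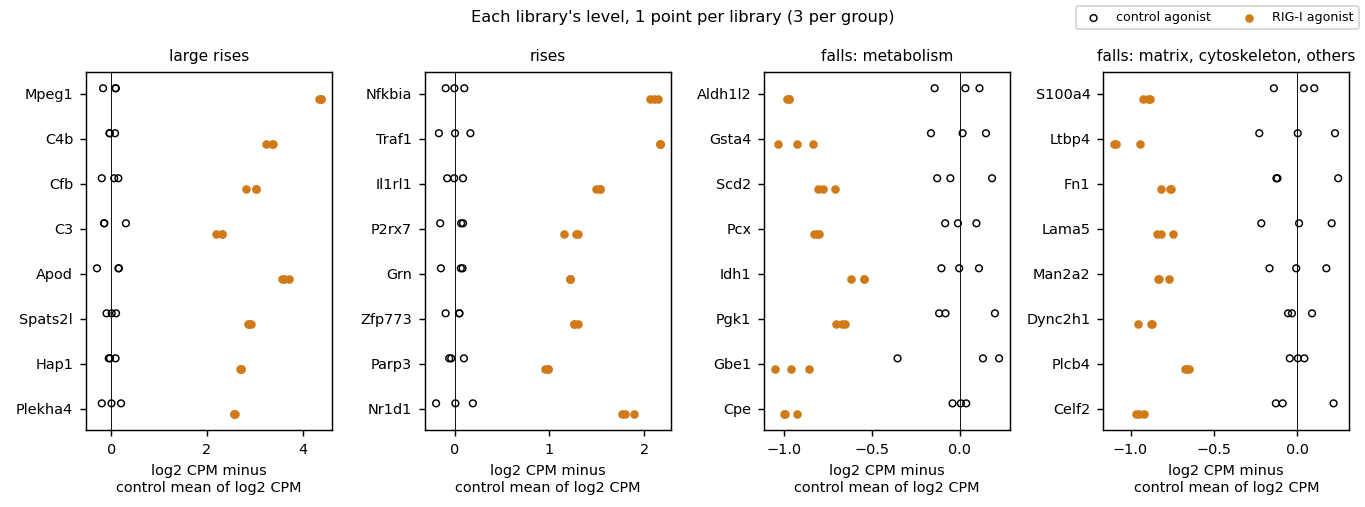
Level of 32 genes in each of the 6 libraries, as log2 CPM minus the mean of log2 CPM over the controls (horizontal axis), 1 point per library and 3 per group, in 4 panels by theme. Mpeg1 and Apod stand farthest to the right, and in the genes of the last panels the RIG-I points lie to the left of the controls, mostly within 1 unit.

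The largest class of moderate rises was the zinc-finger genes. Most mouse genes named Zfp encode C2H2 zinc-finger proteins, many of them KRAB repressors that silence transposable elements, and they lie in clusters. Of 334 tested genes named Zfp, 142 were higher and 14 lower, with a median of 0.23. Their share of all counts was 0.64%, 0.623% and 0.62% in the controls and 0.693%, 0.705% and 0.711% after RIG-I agonist, with no overlap (exact permutation test, two-sided, p = 0.1, the smallest that 3 against 3 allows). The pattern held on several chromosomes: 44 higher and 0 lower of 82 on chromosome 7, 23 and 3 of 43 on chromosome 17, and 11 and 1 of 31 on chromosome 13. On the X chromosome 1 of 6 was higher and 0 lower. In the fit with the spread of all 14 libraries 66 were higher and 9 lower, and the lower count was 8 without RIG-I replicate 1 or 2 and 22 without control replicate 3.

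Single Zfp genes mostly moved little. Zfp773 (chr7:7127073-7136755) rose from 31.2, 34.5 and 34.5 CPM to 79.7, 82.2 and 79.8 CPM (1.27 ± 0.06, adjusted p = 1.43e-09). Zfp619, also on chromosome 7, rose from 13.5, 15 and 13.5 CPM to 31.9, 33.4 and 29.9 CPM (1.18 ± 0.07). These were exceptions in size, since only 9 of the 334 rose at least 2-fold. The largest rise among well-expressed genes of this name was that of Zfp36, from 11.7, 9.58 and 10.8 CPM to 59.6, 60.9 and 65.6 CPM (2.53 ± 0.08), but Zfp36 encodes tristetraprolin, a CCCH protein that directs the decay of AU-rich mRNAs. Zfp131, at 101, 101 and 114 CPM against 106, 108 and 108 CPM, shows a member with overlapping groups. Estimated counts divide reads between similar genes, so values of single members of these clusters are uncertain.

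Clustered histone genes rose by the highest median of the lists examined, from very low levels. These genes make mRNAs that normally lack a poly(A) tail, so poly(A) libraries capture few of them. Of 67 members, 48 were expressed highly enough to be tested, 37 were higher and 0 lower, 35 of them by at least 2-fold, and the median was 1.93. Together they held 0.00392%, 0.00401% and 0.00475% of counts in the controls and 0.0157%, 0.016% and 0.0148% after RIG-I agonist, a ratio of 3.67 (exact permutation p = 0.1, the smallest possible). All classes took part: 4 of 4 linker histone H1 genes, 4 of 10 H2A, 11 of 12 H2B, 8 of 11 H3 and 10 of 11 H4 genes were higher. Hist1h1c, one of the more abundant, rose from 13.1, 12 and 13.3 CPM to 44, 46.2 and 43.5 CPM (1.80 ± 0.07, adjusted p = 1.07e-10). Hist2h2be rose from 3.5, 4.22 and 4.42 CPM to 17.6, 16.6 and 17.2 CPM (2.08 ± 0.10). With a minimum count of 50 in the filter, 16 higher genes were counted. Many members passed the filter only through the treated libraries, so the share called is not that of all members.

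Lists for RNA turnover and transcription had more genes higher than lower, with most members not called. Of 52 mRNA decay genes, 17 were higher and 2 lower (median 0.09). Zfp36l1, a relative of tristetraprolin, rose by 0.71 ± 0.08. Of 46 genes for RNA polymerase II and Mediator subunits, 13 were higher and 2 lower (median 0.11), but only 8 were higher without RIG-I replicate 1 or without RIG-I replicate 2. Polr2g, a subunit of the polymerase, rose from 68.8, 76.7 and 78.7 CPM to 108, 106 and 105 CPM (0.51 ± 0.06), whereas Polr2a, the gene for the largest subunit, overlapped between groups (0.12 ± 0.08, adjusted p = 0.283). General transcription factors had 10 of 32 higher and 3 lower. Mitochondrial ribosomal proteins had 22 of 78 higher and 4 lower (median 0.07), led by Mrpl44 at 17.3, 19.9 and 17.6 CPM against 29.8, 27 and 25.7 CPM (0.59 ± 0.08). Their higher count was 11 without RIG-I replicate 1, and the lower count 11 without control replicate 1. In the fit with the spread of all 14 libraries the higher counts were 9 for mRNA decay, 7 for RNA polymerase II and Mediator, 5 for general transcription factors and 11 for mitochondrial ribosomal proteins.

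**Figure D3:**
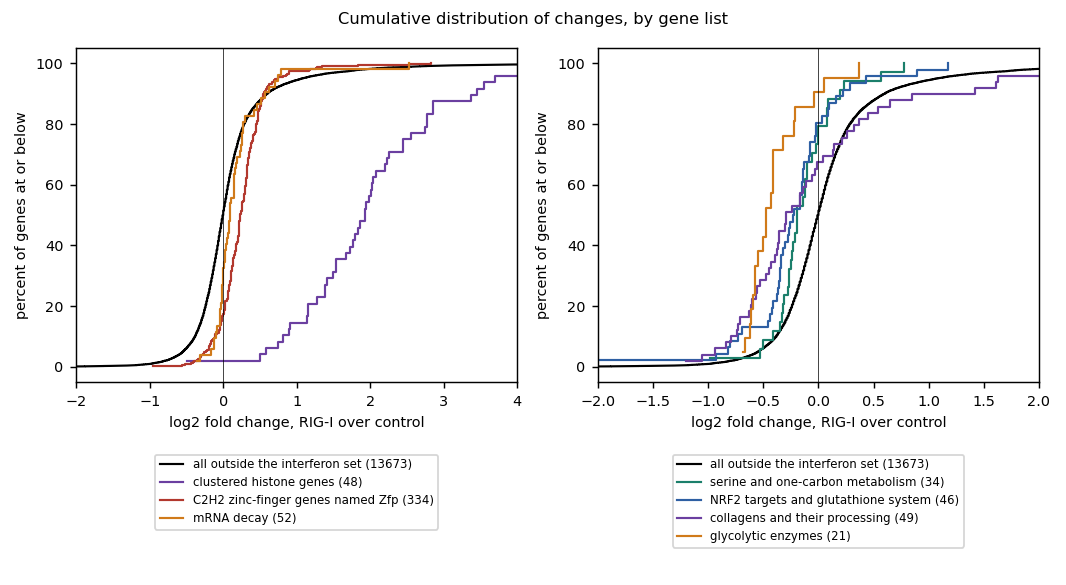
Percent of a list's genes (vertical axis) at or below each log2 fold change of RIG-I agonist over control agonist (horizontal axis), for rising lists (left) and falling lists (right), with the 13673 genes outside the interferon set in black. The curve of the 48 histone genes lies far to the right with a median of 1.93, that of the 334 Zfp genes is shifted by about 0.23, and the falling lists lie left of the black curve over most of their range.

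Repair and clock genes gave individual rises within mixed lists. Of 52 other DNA repair genes, 16 were higher and 11 lower, and the higher count was 9 without RIG-I replicate 1, 10 without RIG-I replicate 2 or 3 and 8 in the fit with the spread of all 14 libraries. Parp3, a poly(ADP-ribose) polymerase of break repair, rose from 20.2, 22.5 and 20.5 CPM to 40.7, 41.7 and 41.5 CPM (0.97 ± 0.07, adjusted p = 7.26e-08). Dclre1c, the nuclease Artemis, rose by 0.88 ± 0.08, and Neil2, a base-excision glycosylase, by 1.36 ± 0.15. The checkpoint kinase genes parted: Atr fell from 56.6, 56.5 and 64.3 CPM to 38.8, 43.2 and 41.1 CPM (-0.53 ± 0.07), and Atm was higher by 0.46 ± 0.07, a call lost in the fit with the spread of all 14 libraries. Of 19 clock genes, 5 were higher and 2 lower, or 9 higher without control replicate 1. Nr1d1, the repressor REV-ERB-alpha of the clock, rose from 11, 12.5 and 9.55 CPM to 37.3, 40.6 and 38.1 CPM (1.81 ± 0.09, adjusted p = 1.61e-09), and Per1 rose by 0.88 ± 0.12 and Nfil3 by 0.72 ± 0.07. The core activators did not rise: Arntl overlapped between groups (-0.16 ± 0.08, adjusted p = 0.153) and Clock fell by 0.23 ± 0.05.

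Stress-response lists held opposite members. Of 37 p53 targets, 20 were higher and 4 lower (median 0.19). Btg2, an antiproliferative cofactor of mRNA decay, rose from 5.49, 5.76 and 7.1 CPM to 23.2, 23.2 and 27.6 CPM (2.01 ± 0.11), and Gadd45b from 34.9, 36.7 and 35.4 CPM to 78.4, 81.7 and 78.8 CPM (1.16 ± 0.06). Both are also induced by other pathways, Gadd45b by NF-kB. The emblematic targets moved less: Mdm2 was higher by 0.22 ± 0.05, a call lost in the fit with the spread of all 14 libraries, Cdkn1a stood at 223, 213 and 212 CPM against 233, 237 and 245 CPM (0.14 ± 0.05, adjusted p = 0.052), and Trp53 overlapped between groups (0.02 ± 0.06, adjusted p = 0.807). The lower count of the p53 list was 2 without RIG-I replicate 1 or 3, and in the fit with the spread of all 14 libraries 12 were higher and 1 lower. Among 36 genes of the integrated stress response, 12 were higher and 13 lower (median 0.00). The transcription factor gene Ddit3 (CHOP) rose from 55.2, 67.8 and 62.6 CPM to 107, 117 and 109 CPM (0.85 ± 0.07) and Chac1, which degrades glutathione, by 0.95 ± 0.09, whereas the lipoprotein receptor gene Vldlr fell from 270, 244 and 267 CPM to 166, 166 and 165 CPM (-0.65 ± 0.06).

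Several metabolic lists held mostly falls. Of those with few or no members higher and 10 or more lower, 7 are given here, and the respiratory-chain lists follow further below. The 7 had 0 higher and 14 lower of 21 glycolytic enzymes and transporters (median -0.48), 0 and 15 of 26 genes of the tricarboxylic acid cycle (-0.19), 0 and 13 of 24 of fatty acid synthesis, elongation and desaturation (-0.25), 2 and 10 of 27 of fatty acid oxidation (-0.15), 3 and 17 of 34 of serine and one-carbon metabolism (-0.19), 2 and 24 of 46 of the NRF2 and glutathione system (-0.23), and 3 and 18 of 46 of pentose phosphate and nucleotide synthesis (-0.13). The last lower count was 11 without control replicate 2. Other metabolic lists did not lean that way: those of glycerolipid synthesis, cholesterol, sphingolipids, mitochondrial import, iron and heme, NAD, and metallothioneins with zinc transporters each had 4 to 9 genes higher and 4 to 9 lower. Glycolytic genes held 1.95%, 1.89% and 2.03% of counts in the controls against 1.39%, 1.42% and 1.4% after RIG-I agonist (exact permutation p = 0.1, the smallest possible).

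One-carbon and glutathione genes held some of the deepest falls. Aldh1l2, the mitochondrial enzyme that burns formyl-tetrahydrofolate to make NADPH (chr10:83487450-83534140), measured 333, 279 and 315 CPM in the controls and 157, 157 and 156 CPM after RIG-I agonist (-0.98 ± 0.07, adjusted p = 5.34e-08). Sfxn1, the mitochondrial serine carrier, fell from 141, 143 and 137 CPM to 96.6, 94.1 and 100 CPM (-0.53 ± 0.05), and Mthfd2, a folate dehydrogenase of the mitochondrion, by 0.24 ± 0.06. Phgdh, which opens serine synthesis, overlapped between groups (-0.19 ± 0.08, adjusted p = 0.0646). A polyamine-degrading enzyme of the same list, Sat1, rose from 53.1, 55.5 and 63.9 CPM to 88.3, 82.3 and 86.2 CPM (0.57 ± 0.07). In the glutathione system the microsomal transferase gene Mgst3 fell from 17, 23.5 and 23.6 CPM to 12.6, 11.7 and 12 CPM (-0.82 ± 0.12, adjusted p = 0.000268) and the cytosolic transferase gene Gsta4 from 12.8, 15.9 and 14.5 CPM to 7.01, 8.03 and 7.54 CPM (-0.93 ± 0.09), the second call being lost in the fit with the spread of all 14 libraries. The thioredoxin reductase gene Txnrd1 fell by 0.30 ± 0.06 and Gclc, the rate-limiting enzyme of glutathione synthesis, by 0.27 ± 0.05.

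Among genes of lipid synthesis, the desaturase genes Scd2 and Scd1 and the synthetase gene Acss2 were lower, whereas Fasn and Acaca were not called. Scd2, a stearoyl-CoA desaturase among the most abundant mRNAs of these cells (chr19:44293674-44306864), measured 1957, 1576 and 1660 CPM in the controls and 1005, 983 and 1054 CPM after RIG-I agonist (-0.77 ± 0.08, adjusted p = 5.44e-06). Its neighbour Scd1 fell from 648, 546 and 574 CPM to 409, 392 and 413 CPM (-0.54 ± 0.07). The groups of both were apart by more than their spread. Acss2, which makes acetyl-CoA from acetate, fell by 0.64 ± 0.09, but Fasn overlapped between groups at 315, 300 and 248 CPM against 258, 261 and 265 CPM (-0.14 ± 0.08, adjusted p = 0.183) and Acaca differed by -0.17 ± 0.07 (adjusted p = 0.0601).

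Enzymes that feed and run the tricarboxylic acid cycle fell. Pcx, pyruvate carboxylase, measured 28.5, 26.5 and 25.2 CPM in the controls and 15, 15.2 and 15.3 CPM after RIG-I agonist (-0.82 ± 0.07, adjusted p = 7.28e-07). Idh1, the cytosolic isocitrate dehydrogenase that makes NADPH, fell from 55.2, 59.2 and 64 CPM to 38.7, 40.6 and 40.7 CPM (-0.57 ± 0.07), and its mitochondrial counterpart Idh2 from 130, 136 and 133 CPM to 98.4, 95.9 and 90.1 CPM (-0.49 ± 0.05). Treated libraries lay below every control in all 3. The citrate synthase gene Cs fell by 0.26 ± 0.07 and Mdh2 differed by -0.13 ± 0.06 (adjusted p = 0.115). Gbe1, the glycogen branching enzyme, fell from 47.2, 33.7 and 50.3 CPM to 20.8, 22.1 and 23.8 CPM (-0.97 ± 0.15), and Pdk1, the kinase that holds pyruvate out of the cycle, from 148, 125 and 155 CPM to 62.1, 69.3 and 61.4 CPM (-1.15 ± 0.08). In both of these hypoxia-responsive genes control replicate 2 was the lowest control. Not every enzyme fell: Pnp, purine nucleoside phosphorylase, rose from 42.9, 47.7 and 53.8 CPM to 143, 132 and 150 CPM (1.56 ± 0.08, adjusted p = 3.61e-09).

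Respiratory-chain and ribosomal protein genes were lower by little, and the counts rested on single libraries. Of 85 cytosolic ribosomal protein genes, 2 were higher and 29 lower (median -0.14). Over the controls, the median deviation of these genes from their mean over all 6 libraries was -0.04, 0.14 and 0.13 on the log2 scale, and over the treated libraries -0.06, -0.02 and -0.14, so control replicate 1 lay with the treated group. The lower count was 54 without control replicate 1, 10 without control replicate 2, 12, 19 and 13 without RIG-I replicates 1, 2 and 3, 17 in the fit with the spread of all 14 libraries and 46 by DESeq2. Their share of counts was 6.39%, 7.23% and 7.16% against 6.33%, 6.53% and 6.07% (exact permutation p = 0.2). Rps21, at 550, 646 and 647 CPM against 461, 497 and 456 CPM (-0.38 ± 0.08), was lower under every setting tried. Complexes III to V had 18 of 39 lower and 1 higher, or 29 lower without control replicate 1, 11 without control replicate 2 or RIG-I replicate 1, and 9 without RIG-I replicate 3. Complex I had 15 of 45 lower and 2 higher, or 28 lower without control replicate 1, 7 without control replicate 2 or RIG-I replicate 3, and 8 without RIG-I replicate 1. Without replicate 3 of both groups the lower counts were 13 for the ribosomal proteins, 6 for complexes III to V and 5 for complex I. Uqcrh, a subunit of complex III, fell from 117, 140 and 136 CPM to 102, 99 and 101 CPM (-0.38 ± 0.06).

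Matrix and adhesion genes formed the next large group of falls. Of 37 integrin and laminin genes, 19 were lower and 4 higher (median -0.24), and of 49 genes for collagens and their processing, 23 were lower and 10 higher (median -0.29). In the fit with the spread of all 14 libraries these lower counts were 12 and 15, and 6 collagen genes were higher. Fn1, fibronectin, fell from 1528, 1187 and 1182 CPM to 760, 732 and 763 CPM (-0.79 ± 0.09, adjusted p = 2.28e-05). Lama5, a laminin chain of basement membranes, fell from 205, 179 and 153 CPM to 99.3, 106 and 101 CPM (-0.81 ± 0.09). Ltbp4, which tethers latent TGF-beta to the matrix (chr7:27305136-27337692), fell from 94.8, 81.2 and 69.2 CPM to 38.1, 42.2 and 37.9 CPM (-1.05 ± 0.10). In these 3 genes control replicate 1 was the highest of all libraries, and the groups were still apart without it. Itgb1, the shared integrin beta chain, fell by 0.43 ± 0.07, while Itga5, the alpha chain of the fibronectin receptor, rose from 79.9, 73.4 and 70 CPM to 100, 94.4 and 102 CPM (0.41 ± 0.06). S100a4, a calcium-binding protein of motile cells, fell from 1099, 1245 and 1300 CPM to 651, 658 and 638 CPM (-0.90 ± 0.07, adjusted p = 3.11e-07). Snai2, a transcription factor of mesenchymal cells, rose instead, from 22.1, 21 and 18 CPM to 33.3, 32.6 and 35.1 CPM (0.73 ± 0.08).

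Cytoskeletal genes fell widely and by small steps. Of 89 actin regulators and myosins, 37 were lower and 5 higher (median -0.16), or 23 lower without RIG-I replicate 1 and 24 in the fit with the spread of all 14 libraries. Their share of counts was 2.22%, 2.15% and 2.04% in the controls and 1.94%, 1.94% and 1.95% after RIG-I agonist (exact permutation p = 0.1, the smallest possible). Myo5a, a vesicle-carrying myosin, fell from 197, 186 and 176 CPM to 124, 124 and 127 CPM (-0.57 ± 0.05), whereas Msn, moesin, rose from 30.6, 26.4 and 27.4 CPM to 43.7, 43.2 and 40.6 CPM (0.59 ± 0.07) and Actb overlapped between groups (0.01 ± 0.06, adjusted p = 0.902).

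Microtubule motors and the cilium followed. Of 65 genes for tubulins, kinesins and dyneins, 25 were lower and 5 higher (median -0.10), or 15 lower without RIG-I replicate 1 and 14 in the fit with the spread of all 14 libraries, and of 80 genes of the centrosome and primary cilium, 23 were lower and 6 higher (median -0.12), or 14, 15 and 15 lower without RIG-I replicates 1, 2 and 3. The higher count of the last list was 1 in the fit with the spread of all 14 libraries. Dync2h1, the motor of retrograde transport in cilia, fell from 30.6, 31.1 and 33.8 CPM to 17.3, 16.4 and 17.4 CPM (-0.90 ± 0.07, adjusted p = 2.18e-07). Its light intermediate chain Dync2li1 fell from 20.3, 20.1 and 24.2 CPM to 14.9, 14.3 and 14.3 CPM (-0.57 ± 0.08), and the transport proteins Ift172 and Ift140 fell by 0.63 ± 0.09 and 0.50 ± 0.10. Of 59 genes of mitosis, kinetochore and spindle, 29 were lower and 4 higher (median -0.17), or 19 lower without control replicate 2. DNA replication genes had 9 of 54 higher and 4 lower (median 0.06). These shares, 16.7% and 7.41%, both lay below the 19.8% and 18.6% over all genes tested. Mcm10, an initiation factor, rose from 77.8, 91.5 and 91.6 CPM to 129, 125 and 126 CPM (0.54 ± 0.07), and Mcm2 and Pcna overlapped between groups. The higher count of that list was 5 without RIG-I replicate 1 or 2 and 4 in the fit with the spread of all 14 libraries, and the lower count ranged from 1 without RIG-I replicate 1 or 3 to 7 without control replicate 1.

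Genes of cyclic nucleotide and calcium signalling leaned down, with 31 of 75 lower and 7 higher (median -0.14), or 20 lower without RIG-I replicate 2. Plcb4, a phospholipase C, fell from 48.1, 46.5 and 49.4 CPM to 30.6, 30.3 and 30.1 CPM (-0.66 ± 0.06, adjusted p = 1.21e-06). Prkar2b, a regulatory subunit of protein kinase A, fell from 118, 103 and 109 CPM to 67.7, 71.2 and 71.5 CPM (-0.65 ± 0.06), and Pde5a, which degrades cyclic GMP, by 0.73 ± 0.08. In each the libraries of a group lay close together and the groups apart. Axon guidance genes had 12 of 41 lower and 3 higher, among them the netrin receptor gene Unc5b, which fell by 0.50 ± 0.06. Of 40 N-glycosylation genes, 12 were lower and 3 higher. Man2a2, the Golgi mannosidase that trims N-glycans, fell from 63.7, 56.2 and 50.3 CPM to 31.8, 31.7 and 33.1 CPM (-0.82 ± 0.08, adjusted p = 2.96e-06). Of 29 ABC transporters, 10 were lower and 2 higher, led by Abca5 at 19.6, 16.8 and 19.9 CPM against 10.5, 11.2 and 10.4 CPM (-0.81 ± 0.08).

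**Figure D4:**
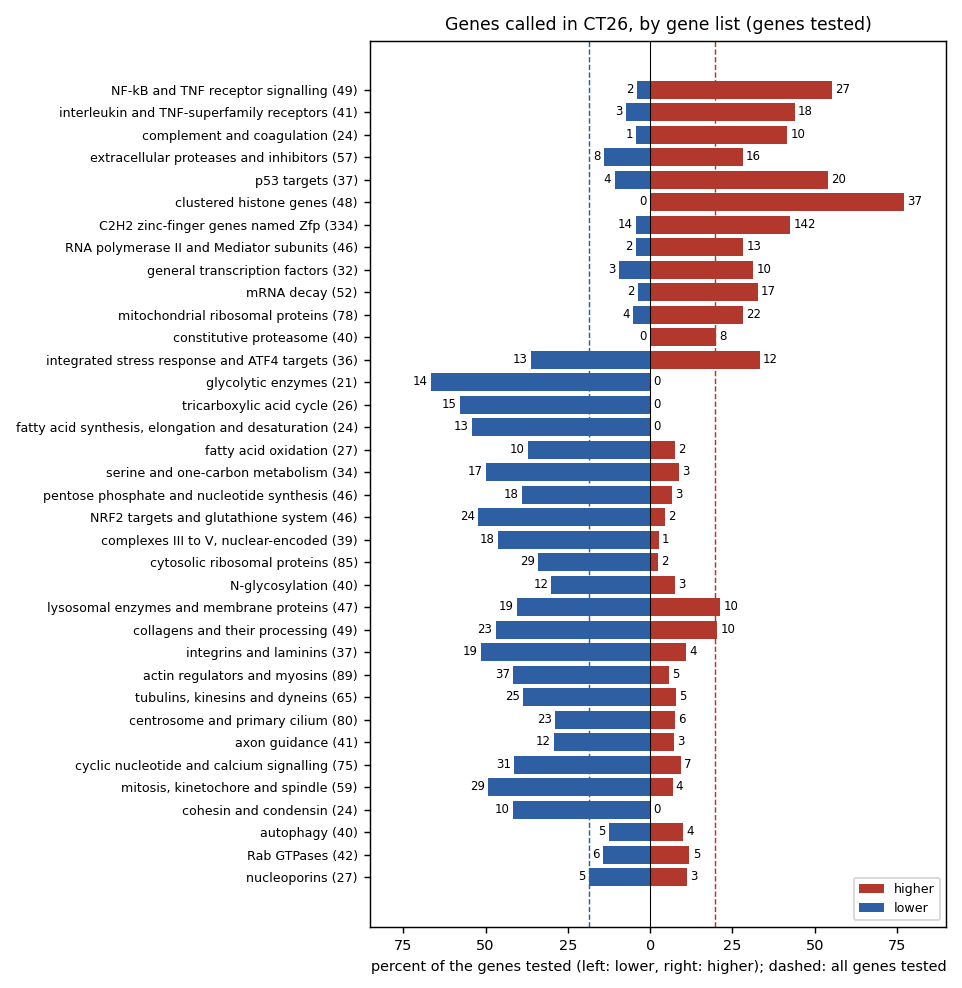
Percent of the tested genes of each of 36 lists that were called higher (right) or lower (left), with the number of genes at each bar, the number tested in brackets and dashed lines at 19.8% and 18.6% for all genes tested. The NF-kB, receptor, p53, histone and Zfp lists extend farther to the right, the metabolic, matrix, cytoskeletal and cyclic nucleotide lists shown farther to the left, and the autophagy, Rab and nucleoporin lists pass neither dashed line.

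Further lists had no excess of calls in either direction over the shares of all genes, or nearly none. Autophagy had 4 of 40 genes higher and 5 lower, or 8 lower without control replicate 1. Becn1 stood at 97, 98.8 and 96.8 CPM against 96.7, 95 and 94.1 CPM (-0.03 ± 0.05, adjusted p = 0.642) and Sqstm1 differed by -0.12 ± 0.06 (adjusted p = 0.134). Rab GTPases had 5 of 42 higher and 6 lower, which became 3 higher without control replicate 2, 3 lower without RIG-I replicate 1 and 10 lower without control replicate 1. Rab7 differed by -0.06 ± 0.06 (adjusted p = 0.43), yet Rab33b, a Golgi GTPase, rose from 27.9, 33.5 and 30.5 CPM to 62.6, 61.3 and 55.4 CPM (0.96 ± 0.08). Constitutive proteasome genes had 8 of 40 higher and 0 lower, the first count ranging from 1 in the fit with the spread of all 14 libraries, and 2 without RIG-I replicate 1, to 13 without control replicate 3. Pseudogenes, 1329 of them tested, had 181 higher (13.6%) and 97 lower (7.3%), both below the shares over all genes, and they can hold reads of their parent genes. Large rises were nonetheless common among them: 114 were higher and 8 lower by at least 2-fold, against 868 and 59 of all 13893 genes. The 88 lists together hold 3986 of the tested genes and 32.4% of the genes called outside the interferon set, so most called genes lay in none of them. Small counts were unsteady: 49 of the 66 list counts of 1 to 5 genes moved by more than 1.5 times when some single library was left out.

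Some called genes, most of them in no list, had moderate changes with groups well apart. Cpe, carboxypeptidase E, which trims peptide hormones, fell from 190, 180 and 186 CPM to 92.8, 92.5 and 97.5 CPM (-0.98 ± 0.05, adjusted p = 2.09e-09). Celf2, an RNA-binding splicing regulator, fell from 83.9, 66 and 67.9 CPM to 38.2, 36.9 and 37.4 CPM (-0.95 ± 0.08). Pla2g7, the secreted enzyme that inactivates platelet-activating factor, fell from 112, 110 and 126 CPM to 65.5, 62.1 and 67.5 CPM (-0.84 ± 0.06). Further falls were those of Cmah, the enzyme that makes the sialic acid Neu5Gc (-0.71 ± 0.06), of Ank, a membrane protein that exports pyrophosphate (-0.63 ± 0.05), and of the tight junction gene Cldn6 (-0.86 ± 0.06). Among rises of the same kind, Lgals8, a galectin that marks damaged endosomes, went from 88.8, 87.4 and 95.4 CPM to 169, 166 and 165 CPM (0.88 ± 0.05, adjusted p = 1.12e-08). Tbrg1, a nuclear growth regulator, went from 162, 157 and 151 CPM to 300, 290 and 304 CPM (0.93 ± 0.06). Usp25, a ubiquitin protease, went from 56, 47 and 50.5 CPM to 96.8, 96.4 and 103 CPM (0.95 ± 0.07), and Atp10a, a lipid flippase, from 76, 76 and 75.8 CPM to 138, 131 and 133 CPM (0.82 ± 0.05).

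The direction of change varied with a gene's level and structure. Among protein-coding genes outside the interferon set with a mean below 1 CPM, 23.1% were higher and 2.85% lower, and among those at 256 CPM or more, 7.71% were higher and 37.9% lower. The test has less power at low levels, and there the filter favours genes that are high in some library. Genomic span showed a gradient as well: 24.2% higher and 13.4% lower up to 10 kb, 14.1% and 25.6% at 30 to 100 kb, and 11.9% and 36.7% among the 270 genes over 300 kb. Within a mean of 16 to 256 CPM the last class had 6.67% higher and 55.8% lower, with a median of -0.23 over 120 genes. Control replicate 1 stood out in long genes, with a median deviation of 0.11 at 100 to 300 kb against 0.02 and 0.02 in the other controls and -0.04, -0.06 and -0.04 in the treated libraries. The lower share up to 10 kb was 8.72%, 8.95% and 8.82% without RIG-I replicate 1, RIG-I replicate 3 and control replicate 2. Without control replicate 1, 479 of 1535 genes over 100 kb were lower and 215 higher, against 505 and 176 with it. Genes of a single exon block had 30.5% higher and 6.9% lower, which became 23.9% and 7.88% without Zfp and histone genes, and genes of 20 or more blocks had 11% and 30.1%. The 6.9% became 3.45% without RIG-I replicate 1 and 4.51% without RIG-I replicate 3. Level, span and exon number vary together, and their separate parts were not tested.

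The X chromosome leaned further down than the autosomes. Of 365 X-linked genes outside the interferon set, 32 were higher (8.77%) and 115 lower (31.5%), with a median of -0.09, against 19.3% and 19.9% of 11876 autosomal genes with a median of 0.00. The difference was there in short and long genes: up to 30 kb, 10.9% of X-linked genes were higher and 26.2% lower, against 23.5% and 14.4% of autosomal ones, and above 30 kb, 6.13% and 38% against 13.5% and 27.4%. X-linked genes held 2.57%, 2.59% and 2.67% of counts in the controls and 2.36%, 2.36% and 2.34% after RIG-I agonist, with no overlap (exact permutation p = 0.1, the smallest possible), and 2.4%, 2.43% and 2.48% against 2.26%, 2.25% and 2.23% without the abundant glycolytic gene Pgk1. The lower count ranged from 85 to 134 and the higher count from 21 to 37 when single libraries were left out, the lowest of both being without RIG-I replicate 1.

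X-linked falls crossed many functions. Pgk1, phosphoglycerate kinase, fell from 1650, 1609 and 2005 CPM to 1070, 1109 and 1098 CPM (-0.68 ± 0.08). Uprt, a gene of uracil salvage, fell from 17.6, 19.1 and 18.8 CPM to 9.95, 11.3 and 10.7 CPM (-0.80 ± 0.08), and Porcn, which attaches lipid to Wnt proteins, from 16.8, 15.9 and 15.2 CPM to 9.74, 9.5 and 9.37 CPM (-0.74 ± 0.07, adjusted p = 3.66e-06). The groups were apart in all 3. Usp11, a ubiquitin protease, fell by 0.45 ± 0.09, and Ids, described with the lysosomal genes, also lies on this chromosome. Il13ra1, Msn and Sat1 are X-linked genes that rose.

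**Figure D5:**
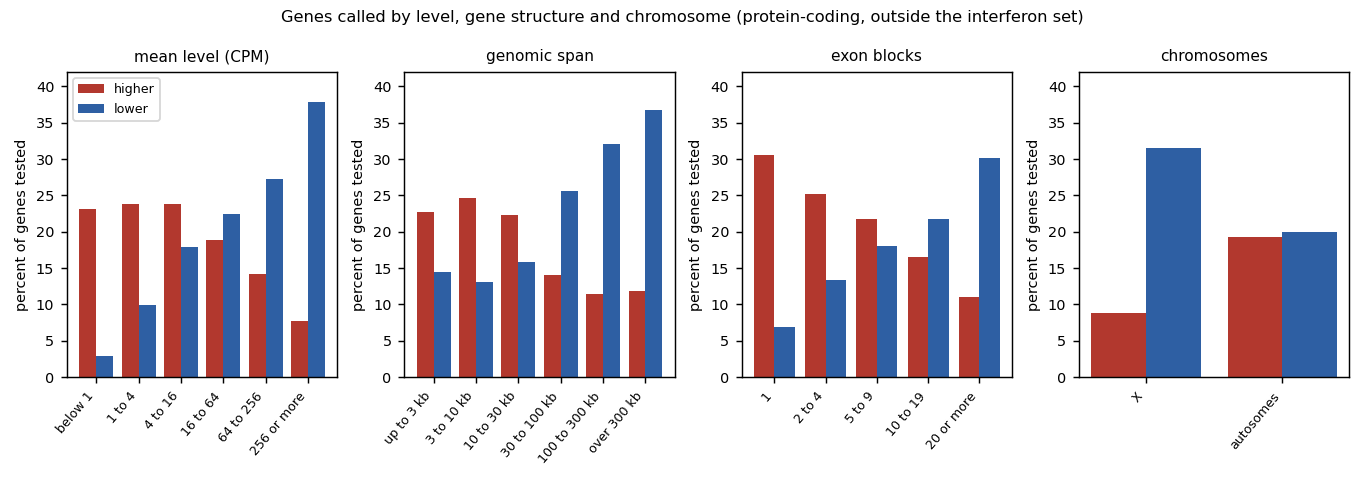
Percent of protein-coding genes outside the interferon set that were called higher or lower (vertical axis), by mean level in CPM, genomic span, number of exon blocks, and X chromosome against autosomes (4 panels). The lower share climbs from 2.85% to 37.9% with level and, apart from a dip at 3 to 10 kb, from 14.4% to 36.7% with span, and on the X chromosome it is 31.5% against 19.9% on the autosomes.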

How the data were processed

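The authors deposited a table of estimated counts for 34866 Ensembl genes in CT26. Salmon, DESeq2 and GRCm38 appear, without their roles, per the submitters' processing notes, and versions, annotation and use of strand in counting are not given in the sources used here. Estimated counts were rounded to whole numbers. Symbols and positions came from GENCODE M21 of GRCm38 (32574 identifiers matched exactly, 34582 after the version was dropped, 284 had no name), and CT26 is of BALB/c origin, so polymorphic genes may be counted less completely.

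The 2 agonists (3 libraries each, grouped by their titles) were compared by edgeR's quasi-likelihood F test with robust dispersions (edgeR 4.0.16, limma 3.58.1, R 4.3.3), TMM scaling and filterByExpr with its minimum count at 10. Benjamini-Hochberg adjusted p-values were called at 0.05. The 1.5-fold test used glmTreat. The biological coefficient of variation was 0.102. The scripts were checked on simulated data. Shares of counts were compared by exact permutation tests, two-sided, with a smallest p of 0.1. Alternatives were other scalings and filters, DESeq2 1.42.0, unrounded counts, a fit of all 14 libraries, a replicate block, leaving out each library, and leaving out replicate 3 of both groups, the last chosen after seeing the data.

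The comparison, the interferon set and the 88 lists were chosen with earlier results of these data known. Lists are described by counts and medians only. Named genes were: per list, up to 4 called genes with the largest change with a mean log2 CPM from 1 upward and at least 30 counts per group; the 15 largest rises and 15 largest falls outside the interferon set with a mean log2 CPM from 3 upward with groups that did not overlap; the 10 rises and 10 falls with the smallest p with a mean log2 CPM from 5 upward and an absolute log2 fold change of 0.32 to 1; cell type markers; and uncalled list members for contrast. Called genes named beyond this rule were chosen after their values were seen: Gclc, Itga5, Clock, Tcirg1, Il6, Cs, Hist1h1c, Itgb1, Mdm2, Clec2d, Tnfaip3, Txnrd1, Piwil4, Rbm43, Rela and Mthfd2. Promoter stretches came from risers outside the interferon set with a mean log2 CPM from 3 upward, with chromosome 18 left out. Shown were the top 6 and top 3 whose match lay before the start and whose whole stretch overlapped no annotated exon. Results that touch items withheld from this text are not reported here.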

Additional observations from a re-analysis of the deposited data

How the results depend on the processing

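Calls of named genes were steadier than list counts. Of the 458 named genes 421 were called, and none was called in the opposite direction under any alternative. Most of the called ones had been chosen for large changes in these same data, which limits what their steadiness shows. Of the 7317 values of named genes under alternatives, 7018 kept their call or lack of one, with 254 calls lost and 45 gained. List medians near 0 took the other sign in up to 12 settings. Of 2816 list counts under alternatives, 436 moved by more than 1.5 times. The fit with the spread of all 14 libraries moved the CT26 genes higher from 2751 to 1520, those outside the interferon set from 2545 to 1322, and the CT26 genes lower by more than 1.5-fold from 64 to 33. Leaving out replicate 3 of both groups raised the last count to 114. The cause was not tested. Leaving out single libraries gave 2060 to 2983 CT26 genes higher and 1803 to 2924 lower. Library size as the only scaling gave 2987 higher and 2179 lower, and DESeq2 gave 2286 and 2592. The higher share of calls was 57.8% with library size only, 43.4% with the shared spread and 51.6% as reported. The median of all genes moved by at most 0.045 on the log2 scale under any of these settings. Depth limits the low end, and levels under 3 counts per library were not read.

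The groups share replicate numbers. Deviations of same-numbered libraries correlated at 0.0924, 0.0842 and 0.262, and only replicate 3 in each group correlated best with its own number, so the numbers were not taken to pair the samples. With a replicate block there were 2779 CT26 genes higher and 2528 lower, or 2573 and 2524 outside the interferon set, and 800 higher and 67 lower by more than 1.5-fold.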
